A study of Mus musculus with 7 samples.

Results

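The miR-30 family was followed in the colorectum of mice with chemically induced colorectal tumours (CRC) and of healthy mice. Its 7 members were the entries of the deposited count table mmu-miR-30a-5p, mmu-miR-30b-5p, mmu-miR-30c-5p, mmu-miR-30d-5p, mmu-miR-30e-5p, mmu-miR-30a-3p and mmu-miR-30e-3p (the species prefix is left out below), out of 1915 mature microRNAs (miRNAs). All 7 passed the filter on low counts, which kept 878 miRNAs for testing.

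All mice were wild-type C57BL/6 females, 7 weeks old when treatment began. The 3 CRC mice, M4, M5 and M6, had been injected with 10 mg of azoxymethane (AOM), which causes colon tumours, per kg of body weight. After 5 days they drank water with 2.5% dextran sodium sulfate (DSS), an agent that damages the colon epithelium, over 7 days, and then plain water over 14 days. The protocol gives 3 such cycles, and the CRC samples are labelled as stage T1, described as day 17. The start of that count of days was not established. The 3 healthy mice, M1, M2 and M3, had been injected with 0.9% saline. No group received AOM or DSS alone, so the carcinogen, the injury and the tumours cannot be told apart, and CRC names the treated group. Mouse M1 has 2 libraries in the labels and a single column of counts, which was used as 1 mouse.

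MiRNAs are short RNAs that guide Argonaute proteins to messenger RNAs, mostly through the seed, bases 2 to 8 of the miRNA. Each hairpin precursor yields a 5p and a 3p arm, and usually one of them, the guide, is kept and the other degraded. The 5p arms of the miR-30 hairpins are guides with a common seed. The family is known to restrain the change of epithelial cells to a mesenchymal state, with Snai1 among its targets, and miR-30a is known to repress the autophagy gene Becn1.

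The 5p members shared their first 11 bases. They are printed with their seed in capitals, in the letters of the deposited table, 5′ to 3′.
miR-30a-5p: tGTAAACAtcctcgactggaag
miR-30d-5p: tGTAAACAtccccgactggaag
miR-30e-5p: tGTAAACAtccttgactggaag
miR-30b-5p: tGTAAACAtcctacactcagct
miR-30c-5p: tGTAAACAtcctacactctcagc
Counting from 1 at the 5′ end, miR-30a-5p differed from miR-30d-5p by T12C alone and from miR-30e-5p by C13T alone. MiR-30b-5p and miR-30c-5p shared their first 18 bases, while miR-30a-5p and miR-30b-5p differed at 7 of 22 compared bases. The seed GTAAACA was held by 6 of the 1915 entries (0.313%), the other being miR-384-5p from a hairpin on chromosome X.

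MiR-384-5p carries the family seed and the 3p entries carry other seeds. Below, with seeds again in capitals, are the members miR-30a-3p and miR-30e-3p and some entries outside the 7 members. They are shown because some of the 3p arms tell apart hairpins whose 5p arms are alike.
miR-30a-3p: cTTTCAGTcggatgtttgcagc
miR-30e-3p: cTTTCAGTcggatgtttacagc
miR-30d-3p: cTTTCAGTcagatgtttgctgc
miR-30c-1-3p: cTGGGAGAgggttgtttactcc
miR-30c-2-3p: cTGGGAGAaggctgtttactct
miR-384-5p: tGTAAACAattcctaggcaatgt
MiR-30a-3p and miR-30e-3p differed by G18A alone. MiR-30c-1-3p and miR-30c-2-3p, the 3p arms of the hairpins that give the same miR-30c-5p, differed by G9A, T12C and C22T. No source used here says how reads fitting several of these entries were assigned, so the split between near-identical entries is uncertain.

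The hairpins lie in 3 pairs in GRCm38. On the plus strand of chromosome 1, Mir30a (23272269 to 23272339) and Mir30c-2 (23291701 to 23291784) are 19361 bases apart. Mir30c-2 lies wholly in an exon of the lincRNA Gm27028, and Mir30a overlaps no other gene on its strand. On the minus strand of chromosome 4, Mir30c-1 (120769534 to 120769622) and Mir30e (120772606 to 120772697) lie 2983 bases apart in an intron of Nfyc, which encodes a subunit of the transcription factor NF-Y. On the minus strand of chromosome 15, Mir30b (68337415 to 68337510) and Mir30d (68341208 to 68341289) are 3697 bases apart. Mir30d lies in an exon of the lincRNA Gm20732, and 16 bases of Mir30b overlap an exon of the noncoding Gm26621. MiR-30c-5p comes from chromosomes 1 and 4 and cannot be assigned to either.

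Total miRNA counts ran from 3206127 to 6601899 in the CRC mice and from 8222508 to 15280434 in the healthy mice. Levels below are CPM, counts scaled to a common library total, with totals corrected by TMM, edgeR's trimmed-mean factor. Fold changes are those of edgeR's quasi-likelihood test across all 878 miRNAs, with Benjamini-Hochberg adjusted p-values and standard errors (SE). A log2 fold change is CRC over healthy, so a negative value is lower in CRC. The root-mean-square difference in log2 CPM over the 878 miRNAs was 1.07 between M4 (CRC) and M3 (healthy), smaller than that of M4 to M5 (1.48) and M6 (1.49) and of M3 to M1 (1.32) and M2 (1.37). It was 0.958 between M5 and M6 and 0.575 between M1 and M2. Results that this touches are also given without both M3 and M4. Muscle miRNAs (6 of 6 in the table, none at a count of 0), such as miR-145a-5p and miR-143-3p, took 6.55% to 20.7% of reads in CRC mice and 21.1% to 48.0% in healthy mice. Epithelial miRNAs (9 of 9, none at 0), such as miR-192-5p and miR-200a-3p, took 13.7% to 17.7% in CRC mice and 12.4% to 14.3% in healthy mice. These lists are markers of the colorectum's muscle and epithelium, and both were abundant in every mouse.

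The family was abundant in every mouse, and the groups overlapped in its summed share of reads. Together the 5 members ending in 5p took 6.05 ± 1.67% of all miRNA reads in CRC mice and 4.47 ± 1.28% in healthy mice (SD, n = 3 each). By mouse the share was 4.21% in M4, 7.47% in M5 and 6.47% in M6, against 3.89% in M1, 3.57% in M2 and 5.94% in M3. The groups overlapped, since the healthy mouse M3 lay above the CRC mouse M4. On the TMM scale the order turned round, with 44420 (M4), 48180 (M5) and 44099 CPM (M6), against 53956 (M1), 61375 (M2) and 53743 CPM (M3). There every CRC mouse lay below every healthy mouse. The direction of the sum therefore depended on the scaling, and as a sum over chosen members it was given no test.

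**Figure D1:**
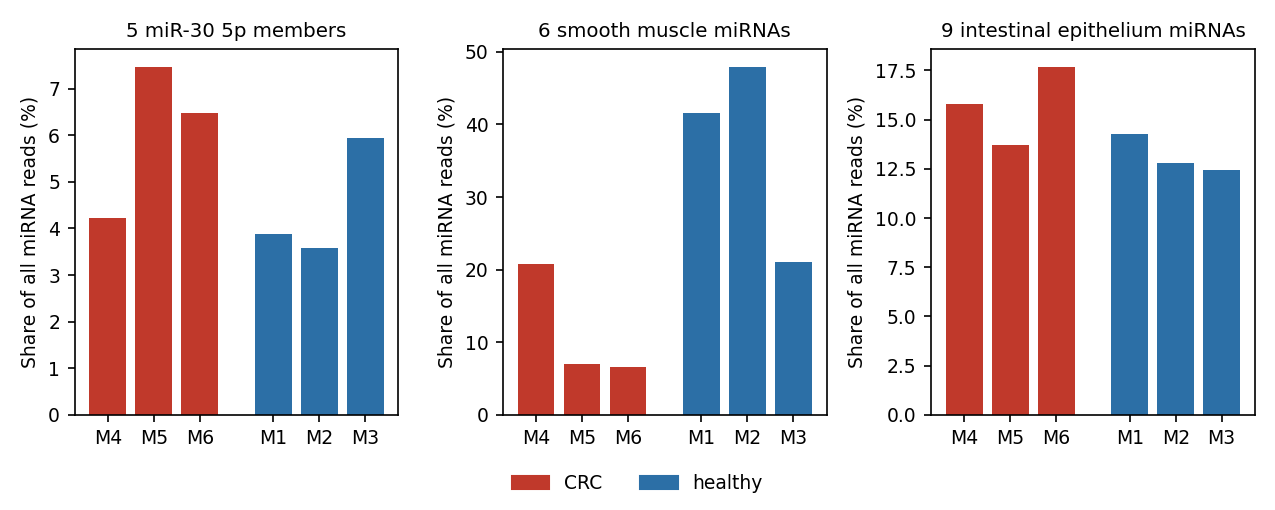
Share of all miRNA reads (percent, 1 bar per mouse) taken by the 5 miR-30 members ending in 5p, by 6 smooth muscle miRNAs and by 9 intestinal epithelium miRNAs, with CRC mice in red and healthy mice in blue. The miR-30 share ran from 4.21% to 7.47% in CRC mice and from 3.57% to 5.94% in healthy mice, while the muscle share was at most 20.7% in CRC mice and at least 21.1% in healthy mice.

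None of the 7 members passed the test between CRC and healthy mice at an adjusted p of 0.05 (0 of 7). Over all tested miRNAs 2.28% passed, all higher in CRC, and 0% passed lower. At an unadjusted p under 0.05, 2 members, miR-30c-5p and miR-30a-5p, were lower in CRC and 0 were higher, against 9.68% of all tested miRNAs lower at that level. These 2 members were also those whose groups did not overlap, every CRC mouse lying below every healthy mouse on the TMM scale, which held for 12.4% of all tested miRNAs. DESeq2 and limma-voom also called 0 of the 7 members, with 1 and 2 at an unadjusted p under 0.05. The members' median log2 fold change was -0.01, against -0.03 over all 878 miRNAs, with 4 of 7 members below 0 against 51.5% of all.

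MiR-30c-5p, known in the heart as a repressor of the connective tissue growth factor gene, had the lowest fold change of the members. Its level was 7934 (M4), 6114 (M5) and 5895 CPM (M6), against 15176 (M1), 14631 (M2) and 10152 CPM (M3). On this scale the groups did not overlap, and M4 and M3 were the nearest mice of the 2 groups. Scaled by total counts alone they overlapped, with 7526 (M4), 9478 (M5) and 8654 CPM (M6), against 10933 (M1), 8516 (M2) and 11215 CPM (M3), and a log2 fold change of -0.26 (edgeR adjusted p = 0.596). It averaged 6648 ± 1119 CPM in CRC mice and 13320 ± 2757 CPM in healthy mice (SD, n = 3 each). The log2 fold change of miR-30c-5p was -1.003 (SE 0.35, edgeR adjusted p = 0.126). Without M3 and M4 the value was -1.59 (edgeR adjusted p = 1.41e-05), in a fit of 2 mice against 2 that called 576 of 1082 tested miRNAs. M3 and M4 were left out because their profiles lay near the other group, which by itself widens the differences, so the small p-values of this fit here and below are no support for a difference.

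MiR-30a-5p, the guide of Mir30a on chromosome 1, showed the same pattern. It had 7185 (M4), 6239.96 (M5) and 6951 CPM (M6), against 11881 (M1), 13649 (M2) and 9249 CPM (M3). Again every CRC mouse was below every healthy mouse on the TMM scale, with M3 the lowest of the healthy mice. Scaled by total counts alone the groups overlapped, with 6815 (M4), 9673 (M5) and 10204 CPM (M6), against 8559 (M1), 7944 (M2) and 10217 CPM (M3). The log2 fold change was -0.77 (SE 0.33, edgeR adjusted p = 0.196), and -1.23 without M3 and M4 (edgeR adjusted p = 0.000276). Its 3p arm had 56.2 (M4), 40.7 (M5) and 44.0 CPM (M6), against 72.8 (M1), 67.3 (M2) and 55.6 CPM (M3). M4 lay just above M3, so these groups overlapped, and the log2 fold change of miR-30a-3p was -0.47 (SE 0.39, edgeR adjusted p = 0.499). Without M3 and M4 it was -1.01 (edgeR adjusted p = 0.00494).

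**Figure D2:**
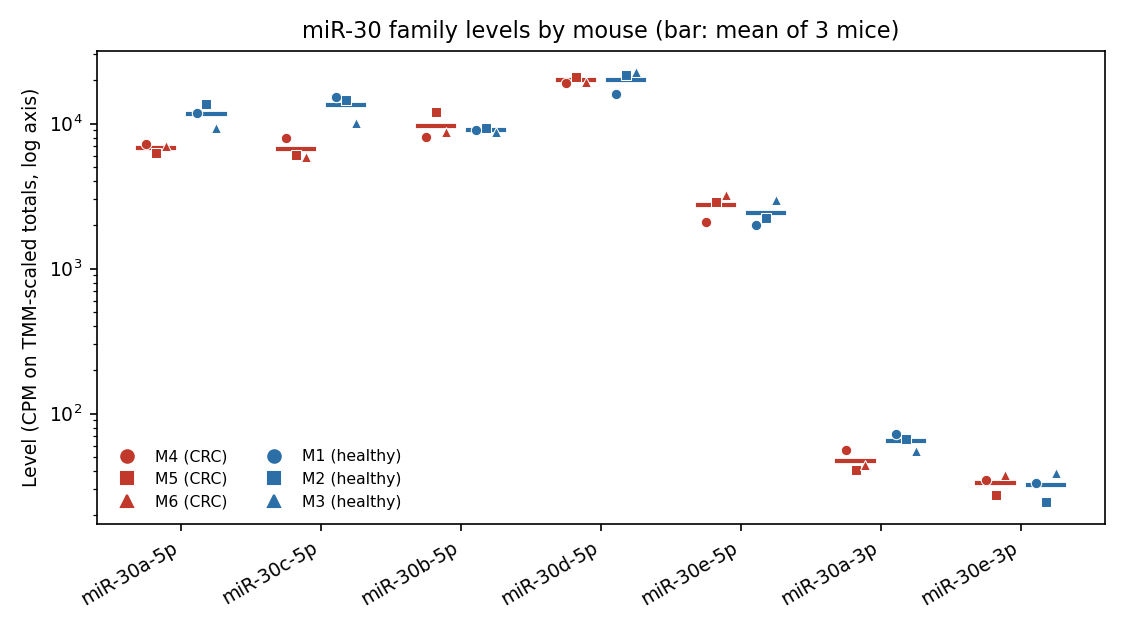
Level of each member (CPM on TMM-scaled totals, log axis) in each mouse, with CRC mice in red to the left and healthy mice in blue to the right, and the mean of 3 mice as a bar. For miR-30a-5p and miR-30c-5p the groups are apart, with at most 7185 and 7934 CPM in CRC mice against at least 9249 and 10152 CPM in healthy mice, and for the other 5 members they overlap.

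The pair on chromosome 15 had nearly the same mean level in both groups on the TMM scale. MiR-30d-5p, the most abundant member and the tenth most abundant of all tested miRNAs, had 19106 (M4), 21016 (M5) and 19358 CPM (M6), against 15917 (M1), 21561 (M2) and 22580.5 CPM (M3). The CRC values lay within the healthy range. Its log2 fold change was -0.01 (SE 0.32, edgeR adjusted p = 0.985), and 0.69 when scaled by total counts alone (edgeR adjusted p = 0.310).

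MiR-30b-5p, which with miR-30d has been linked to invasion in human melanoma, had 8108 (M4), 11937 (M5) and 8684 CPM (M6), against 8997 (M1), 9302 (M2) and 8767 CPM (M3). The healthy mice lay close together, and of the CRC mice M5 was above and M4 and M6 below them. Its log2 fold change was 0.09 (SE 0.33, edgeR adjusted p = 0.897), and 0.85 when scaled by total counts alone (edgeR adjusted p = 0.228).

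MiR-30e-5p, from the Nfyc intron on chromosome 4, was the least abundant of the 5p members. It had 2088 (M4), 2873 (M5) and 3209.8 CPM (M6), against 1985 (M1), 2232 (M2) and 2994 CPM (M3). The groups overlapped over most of their range, with a log2 fold change of 0.18 (SE 0.37, edgeR adjusted p = 0.789). Scaled by total counts alone the log2 fold change of miR-30e-5p was 0.88 (edgeR adjusted p = 0.310). MiR-30e-3p, its 3p arm, had 34.6 (M4), 27.5 (M5) and 37.6 CPM (M6), against 33.2 (M1), 24.5 (M2) and 39.0 CPM (M3). The CRC values lay within the healthy range (log2 fold change 0.04, SE 0.41, edgeR adjusted p = 0.965).

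The order of the members by level was not the same in the 2 groups. In CRC mice mean levels ran from miR-30d-5p (19827 ± 1038 CPM) through miR-30b-5p (9576 ± 2065 CPM), miR-30a-5p (6792 ± 492 CPM) and miR-30c-5p (6648 ± 1119 CPM) to miR-30e-5p (2724 ± 576 CPM; SD, n = 3). In healthy mice they ran from miR-30d-5p (20019 ± 3589 CPM) through miR-30c-5p (13320 ± 2757 CPM), miR-30a-5p (11593 ± 2214 CPM) and miR-30b-5p (9022 ± 268 CPM) to miR-30e-5p (2404 ± 526 CPM; SD, n = 3). The ranges of miR-30a-5p and miR-30c-5p overlapped in both groups, and those of miR-30a-5p and miR-30b-5p overlapped in healthy mice. Every other pair of neighbours was apart within its group. The mature RNAs are 22 or 23 bases long, so length hardly enters these levels.

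Within the family, CRC and healthy mice did not overlap in the shares that 4 of the 5 guides took of the family's reads, which do not depend on how libraries are scaled. For comparison, in TMM-scaled levels rather than shares, 109 of all 878 tested miRNAs were lower in every CRC mouse than in every healthy mouse. Another 124 were higher in every CRC mouse. MiR-30c-5p made up 17.9% of the reads of the 5 members in M4, 12.7% in M5 and 13.4% in M6, against 28.1% in M1, 23.8% in M2 and 18.9% in M3. MiR-30a-5p made up 16.2% in M4, 12.95% in M5 and 15.8% in M6, against 22.0% in M1, 22.2% in M2 and 17.2% in M3. Both shares were lower in every CRC mouse than in every healthy mouse, and in both M3 and M4 were the nearest neighbours across the groups.

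MiR-30d-5p made up 43.0% in M4, 43.6% in M5 and 43.9% in M6, against 29.5% in M1, 35.1% in M2 and 42.0% in M3. MiR-30b-5p made up 18.3% in M4, 24.8% in M5 and 19.7% in M6, against 16.7% in M1, 15.2% in M2 and 16.3% in M3. Both shares were higher in every CRC mouse than in every healthy mouse. MiR-30e-5p held 5.98 ± 1.29% in CRC mice and 4.30 ± 1.10% in healthy mice (SD, n = 3 each), and its groups overlapped. An exact two-sided permutation test gave p = 0.1 for 4 of the 5 shares, the smallest that 3 mice against 3 allow, and p = 0.2 for miR-30e-5p (0.125 and 0.2 adjusted over the 5 shares). No share could therefore pass 0.05. The 5 shares add up to the whole, so they are not independent of each other.

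**Figure D3:**
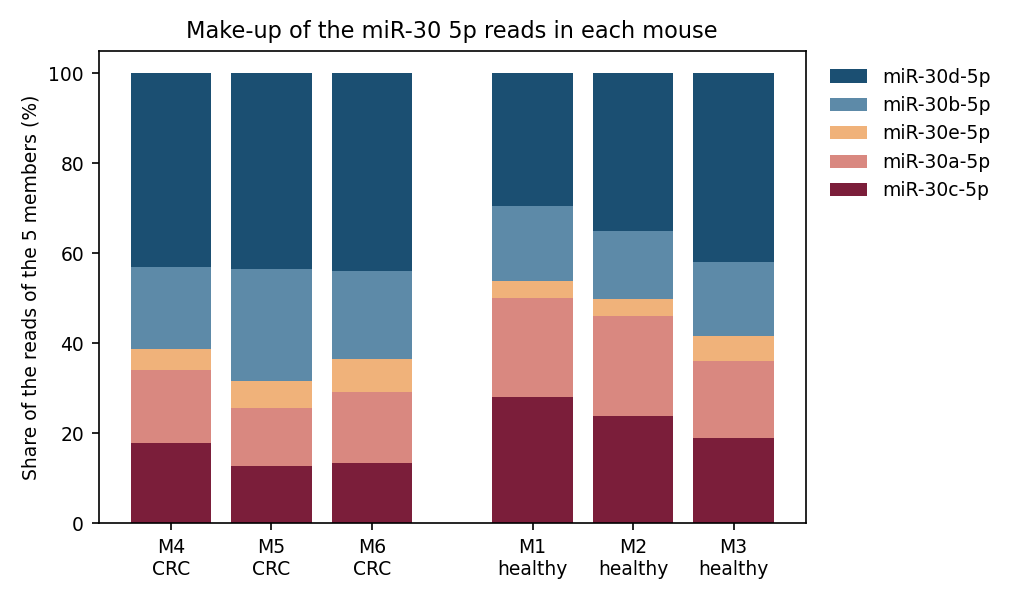
Make-up of the reads of the 5 miR-30 members ending in 5p in each mouse (percent, stacked bars, CRC mice left and healthy mice right). MiR-30c-5p and miR-30a-5p, at the bottom, take less of each CRC bar, with 12.7% to 17.9% and 12.95% to 16.2%, than of each healthy bar, with 18.9% to 28.1% and 17.2% to 22.2%.

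Ratios within pairs of family entries are given as a description with no test, since the pairs were chosen after their levels were seen and partly restate the shares above. The log2 ratio of miR-30c-5p to miR-30b-5p was -0.03 in M4, -0.97 in M5 and -0.56 in M6, against 0.75 in M1, 0.65 in M2 and 0.21 in M3. Thus miR-30b-5p had more reads than miR-30c-5p in every CRC mouse and fewer in every healthy mouse. The log2 ratio of miR-30d-5p to miR-30a-5p, which differ in a single base, was 1.41 in M4, 1.75 in M5 and 1.48 in M6, against 0.42 in M1, 0.66 in M2 and 1.29 in M3. These groups did not overlap either.

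By contrast, the ratio of the neighbours miR-30d-5p and miR-30b-5p on chromosome 15 ran from 0.82 to 1.24 in CRC mice and from 0.82 to 1.36 in healthy mice on the log2 scale. MiR-30a-5p over miR-30e-5p, which also differ in a single base, gave 1.34 ± 0.38 in CRC mice and 2.27 ± 0.56 in healthy mice (SD, n = 3 each), with overlapping groups.

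The 3p arms of the 2 miR-30c hairpins, which tell their loci apart, had fold changes of opposite sign. MiR-30c-2-3p, from chromosome 1, had 47 reads in M4, 14 in M5 and 22 in M6, against 224 in M1, 250 in M2 and 72 in M3. On the TMM scale that was 7.505 (M4), 2.53 (M5) and 4.67 CPM (M6), against 25.04 (M1), 28.1 (M2) and 7.93 CPM (M3). M4 and M3 were within a few percent of each other, and the difference between the groups came from the other 4 mice. The log2 fold change was -2.05 (SE 0.64, edgeR adjusted p = 0.103), the seventeenth lowest of 878. DESeq2 called it (adjusted p = 0.0177), as did edgeR without M3 (0.0490), without M4 (0.0365) and without both (3.31e-06). Those fits called 111 of 878, 63 of 1068, 237 of 1188 and 576 of 1082 tested miRNAs, in the same order. M3 and M4 lay near the other group, so leaving out either carries the limit stated for leaving out both. Over all settings the adjusted p of miR-30c-2-3p ran up to 0.375.

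MiR-30c-1-3p, from chromosome 4, had 5.11 (M4), 6.33 (M5) and 6.59 CPM (M6), against 3.69 (M1), 2.81 (M2) and 4.29 CPM (M3). Every CRC mouse was above every healthy mouse, on 25 to 39 reads each, with a log2 fold change of 0.74 (SE 0.45, edgeR adjusted p = 0.339). The log2 ratio of miR-30c-2-3p to miR-30c-1-3p, with 0.5 added to each count, was 0.55 in M4, -1.29 in M5 and -0.49 in M6, against 2.74 in M1, 3.30 in M2 and 0.88 in M3. The groups did not overlap. At these depths a single read moves the CRC values of miR-30c-2-3p by several percent.

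**Figure D4:**
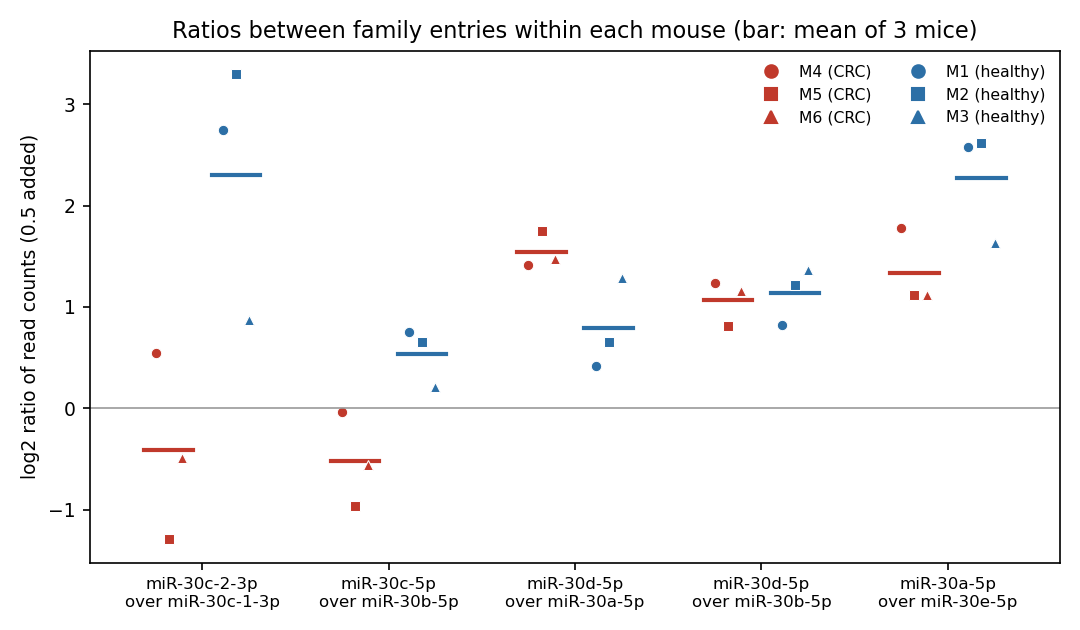
Log2 ratios between the read counts of family entries within each mouse (0.5 added to each count), CRC mice in red to the left, healthy mice in blue to the right, mean of 3 mice as a bar. MiR-30c-2-3p over miR-30c-1-3p averages -0.41 in CRC mice and 2.31 in healthy mice, whereas miR-30d-5p over miR-30b-5p averages 1.07 in CRC mice and 1.13 in healthy mice.

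Grouped by locus, the 3 entries that only chromosome 1 gives (miR-30a-5p, miR-30a-3p and miR-30c-2-3p) had log2 fold changes from -2.05 to -0.47. Those of chromosome 4 (miR-30c-1-3p, miR-30e-5p, miR-30e-3p and miR-30f) ran from 0.04 to 0.74, and those of chromosome 15 (miR-30b-5p, miR-30b-3p, miR-30d-5p and miR-30d-3p) from -0.01 to 0.78. Entries of the same hairpin are not independent, and reads of miR-30f and miR-30e-3p cannot be told apart. Without M3 and M4, miR-30b-5p (-0.12), miR-30e-3p (-0.10) and miR-30f (-0.015) were below 0. With total counts alone as scaling, miR-30a-3p was at 0.24 and miR-30d-5p at 0.69, so their signs turned. None of these entries passed the test. In that scaling the median of all tested miRNAs was 0.62, against -0.03 with TMM. Relative to that median miR-30c-5p was at -0.88, miR-30a-5p at -0.62, miR-30d-5p at 0.07, miR-30b-5p at 0.23 and miR-30e-5p at 0.26. That is the order seen with TMM. A change of scaling shifts all miRNAs by about the same amount, so this order was nearly fixed beforehand and is no check. Before that median was subtracted, the total-count value of miR-30a-5p was -0.00157.

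**Figure D5:**
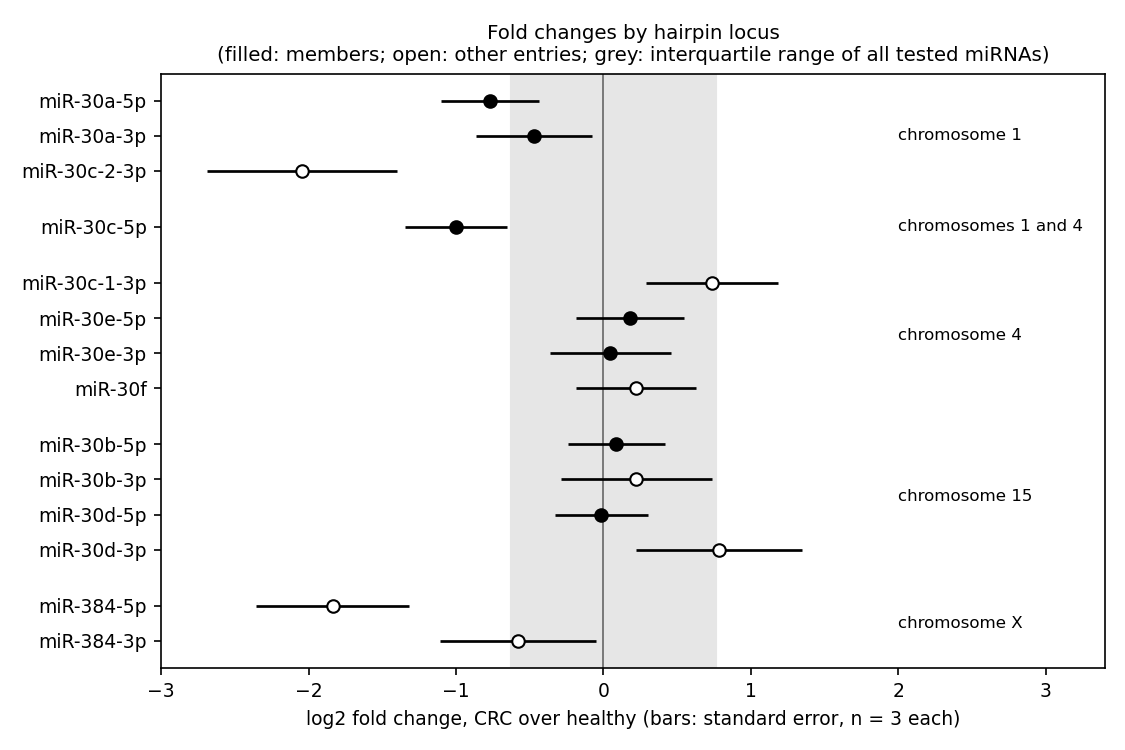
Log2 fold change of each family entry, CRC over healthy (points, with standard errors, n = 3 mice each), arranged by the chromosome of its hairpin, with members filled and other entries open. The grey band is the interquartile range of all 878 tested miRNAs, from -0.63 to 0.77, and miR-30c-2-3p, miR-384-5p, miR-30c-5p and miR-30a-5p lie below it and miR-30d-3p (0.78) just above it.

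The other 7 entries of these hairpins or with the family seed were far rarer than the guides. Of these 7, 0 passed the test, against 2.28% of all tested miRNAs. At an unadjusted p under 0.05, 2 were lower in CRC (miR-30c-2-3p and miR-384-5p), against 9.68% of all. On the log2 scale their fold changes had a median of 0.22. MiR-384-5p, which shares the seed and is known from neurons, had 6.39 (M4), 5.07 (M5) and 7.22 CPM (M6), against 28.3 (M1), 26.98 (M2) and 11.6 CPM (M3). Every CRC mouse lay below every healthy mouse (log2 fold change -1.84, SE 0.52, edgeR adjusted p = 0.0819). DESeq2 called it (adjusted p = 0.0112), as did edgeR without M3 (0.0423), without M4 (0.0465) and without both (1.72e-05), with up to 0.325 over all settings. The call rates of these fits and their limit are those given for miR-30c-2-3p. MiR-384-3p, the 3p arm, had -0.58 (SE 0.53, edgeR adjusted p = 0.542), on 9 to 57 reads.

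MiR-30d-3p had 12.5 (M4), 15.4 (M5) and 9.56 CPM (M6), against 4.92 (M1), 4.16 (M2) and 12.7 CPM (M3) (log2 fold change 0.78, SE 0.56, edgeR adjusted p = 0.426). Here M3 lay among the CRC mice, and without M3 and M4 the value was 1.16 (edgeR adjusted p = 0.0342). MiR-30b-3p stayed at 2.25 to 5.25 CPM in every mouse (0.22, SE 0.51). MiR-30f is annotated on the strand opposite Mir30e, and 19 of its bases are the reverse complement of miR-30e-3p, so without known strand handling their reads cannot be told apart. It had 33.6 to 44.9 CPM in CRC mice and 26.2 to 40.3 CPM in healthy mice (0.22, SE 0.41).

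The 5p arm had more reads than the 3p arm of Mir30a, Mir30b, Mir30d and Mir30e in every mouse, and the arms of the miR-30c hairpins could not be compared, since miR-30c-5p pools both. Mir30a gave 128 reads of its 5p arm per read of its 3p arm in M4, 153 in M5 and 158 in M6, against 163 in M1, 203 in M2 and 166 in M3. Mir30e gave 60.3 in M4, 104.5 in M5 and 85.4 in M6, against 59.8 in M1, 91.1 in M2 and 76.8 in M3. For Mir30b the ratio lay between 2096 and 4137 and for Mir30d between 1367 and 5183 over the 6 mice. In Mir384 the arms were much closer, with 1.21 to 3.11 in CRC mice and 2.33 to 5.00 in healthy mice.

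The arm ratios were tested with limma across 319 hairpins. Hairpin copies that give the same mature miRNAs, such as those of miR-466b, entered separately with identical ratios. Mir3102 entered again with another 3p entry. The adjustment and the shares of all hairpins here and below count each such copy. Of the 319, 0.627% passed at an adjusted p of 0.05, and 0 of the 7 hairpins of this family and Mir384 were among them. At an unadjusted p under 0.05 stood 1 of these 7, the pairing of miR-30c-5p with the 3p arm of Mir30c-1, against 11.9% of all hairpins. The difference in log2 ratio was -0.28 for Mir30a (SE 0.48, limma adjusted p = 0.759), although every CRC mouse lay below every healthy mouse, as in 5.64% of all hairpins. It was 0.12 for Mir30e (SE 0.46, limma adjusted p = 0.885), -0.15 for Mir30b (SE 0.62) and -0.94 for Mir30d (SE 0.56, limma adjusted p = 0.499). MiR-30c-5p set against the 3p arm of Mir30c-1 gave -1.74 (SE 0.59, limma adjusted p = 0.199), and against that of Mir30c-2 0.97 (SE 0.57, limma adjusted p = 0.499). Since miR-30c-5p pools both hairpins, neither value is the arm use of a single hairpin. Without M3 and M4 these last values were -2.31 (limma adjusted p = 0.0137) and 1.60 (limma adjusted p = 0.0259), in a fit that called 137 of 330 hairpins.

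The read share of smooth muscle miRNAs was highest in M1 and M2 and lowest in M5 and M6. On the TMM scale the levels of miR-30a-5p and miR-30c-5p had this order too. Scaled by total counts alone, as a read share is, they did not. There both were highest in M3 (10217 and 11215 CPM) and lowest in M4 (6815 and 7526 CPM). MiR-143-3p, a smooth muscle miRNA, had 59649 (M4), 23021 (M5) and 20051 CPM (M6), against 185847 (M1), 188524 (M2) and 69381 CPM (M3). It was highest in M1 and M2 and lowest in M5 and M6, but this order was not shared by all muscle miRNAs nor limited to them. MiR-133a-3p, also of muscle, had 396 (M4), 152 (M5) and 177 CPM (M6), against 419 (M1), 511 (M2) and 1019 CPM (M3). MiR-200a-3p, of epithelium, had 36467 (M4), 27785 (M5) and 31906 CPM (M6), against 58202 (M1), 58677 (M2) and 36508 CPM (M3). Other epithelial miRNAs did not all have this order. MiR-429-3p had it, with 6421 (M4), 3637 (M5) and 4735 CPM (M6), against 7202 (M1), 7042 (M2) and 6577 CPM (M3). MiR-200c-3p had 3262 (M4), 2301 (M5) and 2900 CPM (M6), against 2182 (M1), 1885 (M2) and 2797 CPM (M3). MiR-375-3p was highest in M3 (1836 CPM), with 863 CPM in M1 and 856 CPM in M2. Leukocyte miRNAs (6 of 6 in the table, none at 0) took 0.836% to 1.27% of reads in CRC mice and 0.219% to 1.76% in healthy mice, with the highest share in M3. Endothelial miRNAs (2 of 2, none at 0) took 1.20% to 1.97% in CRC mice and 0.787% to 1.33% in healthy mice. Fibroblast miRNAs (3 of 3, none at 0) took 0.592% to 0.967% in CRC mice and 0.590% to 0.666% in healthy mice, and red blood cell miRNAs (3 of 3, none at 0) took 0.0445% to 0.286% in CRC mice and 0.0164% to 0.0621% in healthy mice. The part of these cell types in the miR-30 values was not tested, and in whole tissue fewer cells of a type and less RNA per cell cannot be told apart.

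Among 273 miRNAs outside the family with a mean of at least 50 CPM, the profile over the 6 mice most like the mean of the 5p members was that of miR-101b-3p. The measure was the root-mean-square difference of centred log2 CPM, which was 0.07 for miR-101b-3p, 0.12 for miR-378b, 0.13 for miR-500-3p, 0.15 for miR-374b-5p and 0.17 for miR-374c-3p. The members themselves lay from 0.21 (miR-30d-5p) to 0.42 (miR-30c-5p) from their own mean. Those 5 miRNAs were picked as the smallest of 273 distances and the members were not. Their smaller distances therefore do not tell how alike the members are. MiR-101b-3p had 1458 ± 32.6 CPM in CRC mice and 1910.4 ± 114.8 CPM in healthy mice (SD, n = 3 each). Its log2 fold change was -0.39 (SE 0.34, edgeR adjusted p = 0.517).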

How the data were processed

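Small RNA from the colorectum was read on Ion Proton sequencers with the Ion Total RNA-Seq Kit v2.0, per the labels' protocols. BWA and mm10 (GRCm38) are the aligner and genome that the submitters' processing notes name. The authors deposited raw whole-number counts of 1915 mature miRNAs in 6 columns, 1 per mouse, and mice are separate animals. The labels give mouse M1 2 libraries, and its only column entered once.

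The main test was that of edgeR 4.0.16 under R 4.3.3 (TMM, filterByExpr, robust quasi-likelihood fit, two-sided, Benjamini-Hochberg over 878 miRNAs at 0.05). SE is the log2 fold change divided by the square root of F. Arm ratios (0.5 added, mean of at least 10 counts per arm) were tested with limma 3.58.1, and shares by exact permutation. DESeq2 1.42.0 and limma-voom were alternatives. The scripts were tested on simulated data. Hairpin positions come from GENCODE M21 (GRCm38), and the printed sequences from the deposited table. RefSeq (GRCm38.p6) listed 10 of the 14 mature sequences, all the same.

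The members, marker lists and settings were chosen with earlier results of these data known. All members, the other entries of these hairpins or with the family seed, and the 5 closest profiles at 50 CPM or more were named by rule. The ratios (given no test), miR-143-3p, miR-133a-3p, miR-200a-3p, miR-200c-3p, miR-375-3p and miR-429-3p were chosen after values were seen. Counting error only is covered by depth: a count of 0 allows up to 0.196 CPM in M2 and 0.936 CPM in M6. These 2 values are scaled by total counts, without the TMM factor.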

Additional observations from a re-analysis of the deposited data

How the results depend on the processing

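Over 118 repeats of the 7 members' fold changes under other settings, 99 kept their direction and stayed on the same side of the threshold. Without both M3 and M4, miR-30c-5p (-1.59), miR-30a-5p (-1.23), miR-30a-3p (-1.01) and, among the other entries, miR-30d-3p (1.16), miR-30c-2-3p and miR-384-5p passed edgeR's test, while miR-30b-5p (-0.12), miR-30e-3p (-0.10) and miR-30f (-0.015) changed sign. Scaled by total counts alone, the sign turned for miR-30a-3p (0.24), miR-30d-5p (0.69) and miR-384-3p (0.064). MiR-30d-5p also changed sign with values of 0.0058 with upper quartile factors, 0.19 with a filter at 50 CPM and 0.00137 with limma-voom. With near-identical members summed before the fit, miR-30a, miR-30d and miR-30e (5p) gave -0.18, miR-30b and miR-30c (5p) -0.43 and the 3p pair -0.24, which turned the sign for miR-30e-5p, miR-30b-5p and miR-30e-3p. With the GC trend of each profile removed, miR-30c-5p had -0.80 and miR-30a-5p -0.59. The filter at 50 CPM left out miR-30e-3p. The causes were not tested.

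Leaving out single mice gave log2 fold changes from -1.24 to -0.78 for miR-30c-5p, -0.99 to -0.50 for miR-30a-5p, -0.65 to -0.31 for miR-30a-3p, -0.080 to 0.28 for miR-30b-5p, -0.14 to 0.15 for miR-30d-5p, 0.02 to 0.42 for miR-30e-5p, -0.065 to 0.19 for miR-30e-3p and -0.081 to 0.40 for miR-30b-3p. Log2 arm ratio differences ran from -0.39 to 0.10 for Mir30b and -0.062 to 0.33 for Mir30e, and that of miR-30d-5p over miR-30b-5p from -0.22 to 0.063.

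The test over all miRNAs called 20, against 43 with total counts alone (42 higher, 1 lower), 64 without a filter, 0 with a filter at 50 CPM (76 at an unadjusted p under 0.05), 111 with DESeq2, 0 with limma-voom (216 at an unadjusted p under 0.05), 576 without M3 and M4, and 0 to 237 without a single mouse: 237 when M4 was left out, 63 for M3, 4 for M2 and 0 for each of M1, M5 and M6. The arm test called 2 of 319 hairpins, 0 at a minimum of 50 counts (21 at an unadjusted p under 0.05), 1 with 5 counts added, 137 without M3 and M4 and 0 to 23 without a single mouse (23 without M3). The family's share of all reads differed by 1.59 percentage points between CRC and healthy mice by 0.298 without the reads of the 5 most abundant other miRNAs, by 3.24 without M3 and M4, and by 0.878 (without M5) to 2.51 (without M4) with a single mouse left out. No paired analysis was possible because the labels give the mice of the 2 groups no shared numbers.

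Depth limits the 3p arms most: miR-30c-2-3p and miR-30c-1-3p rest on 14 to 250 and 25 to 39 reads a mouse. With 3 mice a group, no exact test can go below 0.1.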
